A study of Mus musculus with 5 samples.

Results

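The 10 genes examined here encode the factors of the AP-1 group: Jun, Junb and Jund, then Fos, Fosb, Fosl1 and Fosl2, and the smaller relatives Batf, Batf3 and Atf3. They were taken by their RefSeq symbols from 21000 protein-coding genes of the mouse build mm10 (GRCm38), and their chromatin was read from 5 lists of DNaseI hypersensitive sites (DHSs), the stretches where the nuclease DNase I cuts readily. A site belonged to a gene if it lay within 1 kb of any transcription start site (TSS) of that gene, called a promoter site below, or if it lay inside the gene or up to 100 kb from its TSS with that gene as the nearest protein-coding gene. By this rule 169 of the 135173 listed sites were assigned to the 10 genes.

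All 5 populations were derived in vitro from one embryonic stem (ES) cell line of mouse strain 129 with a GFP reporter of Brachyury (Bry). Mesoderm (MES) was sorted for Bry:GFP+ cells without FLK1, and hemangioblasts (HB) for Bry:GFP+ cells with FLK1. Hemogenic endothelium (HE) was positive for Bry:GFP, Tie2 and Ckit and lacked CD41, hematopoietic progenitors (HP) were CD41+, and macrophages (MAC) were CD11b+. Each stage had 1 list (n = 1), so no difference between stages could be set against a spread between replicates and no p-value was computed. The label of the MAC list names 2 replicates together. A site is an interval without a height or read count, the lists hold no depth, read totals were not used, and the absence of a site means only that no site was listed. The lists held 21949 sites (MES), 24729 (HB), 33305 (HE), 17734 (HP) and 37456 (MAC), and their median widths were 800, 900, 1200, 900 and 600 bp. The MAC list was thus the longest and its sites the narrowest, while sites of the HE list were the widest. Promoter sites at marker genes went with the labels in part. All 4 markers of MES had one in MES, 4 of 4 of HB in HB, 4 of 4 of HE in HE and 4 of 4 of MAC in MAC, but Gfi1b and Myb had none in HP, which leaves 2 of 4 HP markers there against 3 in HE and 2 in MAC. Several sets did not separate the stages, since the MES markers had 4 of 4 in HB and 3 in HE as well, and the HB markers 4 of 4 in HE and HP. Of 5 markers of undifferentiated ES cells, 4 had a promoter site in MES, 4 in HB, 2 in HE and 0 in HP and MAC, and of 5 fibroblast markers the counts were 4, 4, 4, 2 and 0. The part of such cells in the results was not tested.

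AP-1 is a dimer of basic leucine zipper (bZIP) proteins. JUN proteins pair with each other or with FOS proteins, and FOS proteins need a JUN partner. The dimers bind a short palindrome, searched here as TGANTCA, in which N is any base. BATF and BATF3 lack a transactivation domain of their own, pair with JUN proteins and bind together with the interferon regulatory factors IRF4 or IRF8, and ATF3 is a stress-induced member that can also bind the cyclic AMP response element (CRE). Fos, Fosb, Junb, Jun and Atf3 are immediate early genes, switched on within minutes by kinase signals through serum response factor (SRF) at CArG boxes and through CREB and ATF factors at CRE-like sequences. In macrophages AP-1 factors act beside PU.1 at many enhancers.

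The sequences in front of some of these genes hold short forms of such elements. The promoters are given in the direction of transcription, upstream of any exon of a protein-coding transcript, from RefSeq with build GRCm38.p6. That of Jun is chr4:95052223-95052372 on the minus strand, that of Fos chr12:85473740-85473889 on the plus strand and that of Batf chr12:85686570-85686668 on the plus strand. The Jun and Fos stretches lay inside sites of all 5 stages at their capital letters, whereas the Batf stretch lay in no listed site. Capitals mark TGACATCA in Jun, where JUN and ATF2 are known to bind, and TGACGT, the core of a CRE, in Fos and Batf. These short forms were chosen after the sequences had been seen.
Jun promoter: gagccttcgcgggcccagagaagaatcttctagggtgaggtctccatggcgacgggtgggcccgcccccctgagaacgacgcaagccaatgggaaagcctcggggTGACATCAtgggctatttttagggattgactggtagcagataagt
Fos promoter: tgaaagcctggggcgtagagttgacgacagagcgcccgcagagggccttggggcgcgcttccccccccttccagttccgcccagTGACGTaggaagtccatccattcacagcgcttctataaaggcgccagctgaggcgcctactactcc
Batf promoter: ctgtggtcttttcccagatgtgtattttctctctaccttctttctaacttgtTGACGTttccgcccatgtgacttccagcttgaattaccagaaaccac
The match began at -45 from the TSS in Jun, at -66 in Fos and at -98 in Batf, and Atf3 had TGACGT on the other strand with its first base at -8. Over 20488 promoters from 250 bases before to 50 bases after the TSS, 8.72% held TGACGT and 2.97% held TGACATCA on either strand. No exact match to the AP-1 palindrome, the full CRE (TGACGTCA) or the CArG box was found in these 300-base windows of the 9 member genes with an entry, against 7.11%, 2.30% and 1.51% of all promoters. Fosl1 is not among these entries.

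CArG boxes lay further out. In the central 500 bp of the members' open regions there were 6 such regions, and 4 of them sat in chromatin that carried sites of all 5 stages. They are shown on the plus strand of GRCm38.p6 with the CArG box in capitals, because they are an element of immediate early induction. The Fos box at chr12:85473551-85473620 lies in the promoter region centred at -0.301 kb and corresponds in position to the serum response element. The Fosb box at chr7:19310278-19310347 lies in the region at -0.297 kb. The other pair lies outside the RefSeq promoters, past the 3′ end of Fos at chr12:85486084-85486153 and past that of Junb at chr8:84976594-84976663. The GENCODE vM21 annotation starts a further, non-coding Junb transcript at 84976542, so that by those TSSs the Junb box is at a promoter.
Fos, -0.301 kb: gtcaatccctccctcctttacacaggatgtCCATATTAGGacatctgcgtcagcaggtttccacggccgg
Fosb, -0.297 kb: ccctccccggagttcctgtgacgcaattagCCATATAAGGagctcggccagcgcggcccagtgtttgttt
Fos, 12.3 kb: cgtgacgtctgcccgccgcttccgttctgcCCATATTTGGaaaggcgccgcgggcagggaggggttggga
Junb, 2.26 kb: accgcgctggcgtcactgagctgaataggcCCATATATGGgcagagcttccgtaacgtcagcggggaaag
The first 3 of these boxes were covered by a deposited site in all 5 stages, and the Junb box in MES, HB, HE and HP, since the MAC site there ended within it. The remaining CArG regions were open in a single stage, at -65.2 kb of Jun in HE and at 27.2 kb of Fosl2 in MAC. Within 2 kb of a TSS, 2 of 16 member regions held a CArG box (12.5%, 95% Wilson interval 3.50 to 36.0, counting error only) against 1.76% of all 16497 such regions. Beyond 2 kb it was 4 of 68 (5.88%, interval 2.31 to 14.2) against 2.69% of 52345. The pattern rests on 6 regions, of which 2 belong to Fos.

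To see which AP-1 promoters were open at each stage, promoter sites were counted. Of the 10 genes, the numbers with a promoter site were 9 (MES), 9 (HB), 9 (HE), 8 (HP) and 8 (MAC). Over all protein-coding genes the shares were 57.2% (MES), 58.9% (HB), 61.7% (HE), 50.1% (HP) and 50.2% (MAC). Jun, Junb, Jund, Fos, Fosb, Fosl1, Fosl2 and Atf3 had a promoter site in all 5 stages, 8 of 10, a pattern found in 43.4% of genes. Batf had one in no stage, as did 32.4% of genes. Batf3 had one in MES, HB and HE only, as did 3.96% of genes (831). By this rule the count of open AP-1 promoters stayed within 1 gene from mesoderm to macrophages, and Batf3 alone made the change. Without sites below their list's median width it was 6, 8, 8, 6 and 7 from MES to MAC. At a promoter reach of 100 bp it was 7, 8, 7, 6 and 6.

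**Figure D1:**
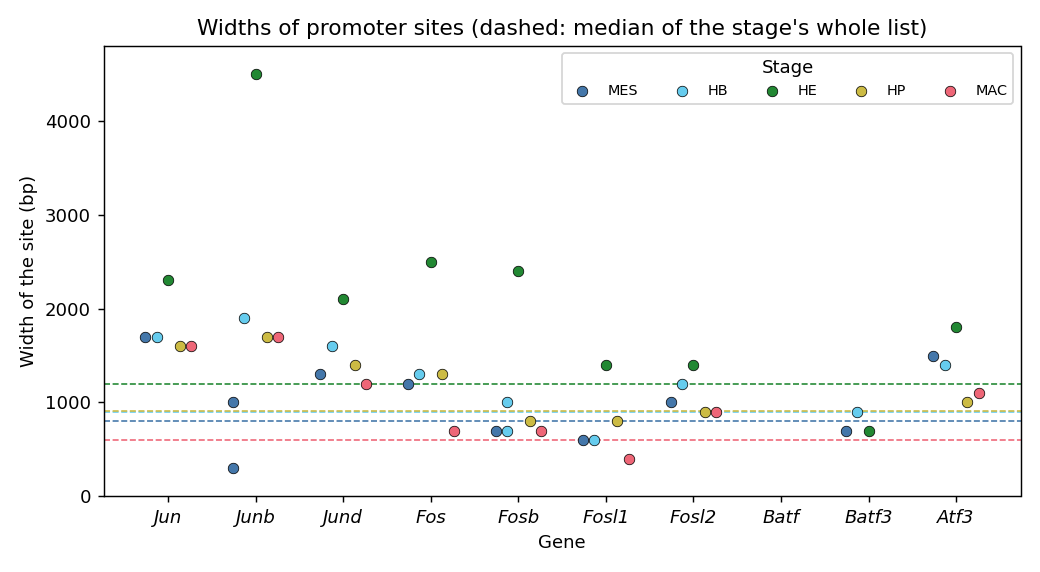
Width in bp of every promoter site of each gene (points, coloured by stage, 1 list per stage); dashed lines are the median width of the stage's whole list. HE has the widest promoter site at Jun, Junb, Jund, Fos, Fosb, Fosl1, Fosl2 and Atf3, from 1400 bp at Fosl1 and Fosl2 to 4500 bp at Junb, and Batf has no point.

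The promoters of the JUN genes had some of the widest sites. Jun (chr4:95049036-95052222, minus strand), the founding member, carried a promoter site of 1700, 1700, 2300, 1600 and 1600 bp from MES to MAC. Only 132 of the 37456 MAC sites and 116 of the 21949 MES sites were wider than its own. Junb (chr8:84976909-84978748, minus strand), which can oppose Jun at shared targets, had a pair of promoter sites of 1000 and 300 bp in MES, then single sites of 1900 (HB), 4500 (HE), 1700 (HP) and 1700 bp (MAC). Its HE site was the widest of all 33305 sites in that list and spanned the whole gene, from the promoter to the region at 2.26 kb. MES, HB, HP and MAC had a separate site at that region, of 1100, 1200, 800 and 400 bp. The single HE site at Junb thus covered ground that the other lists divided into 2 or 3 sites.

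Jund (chr8:70697739-70700616, plus strand), the most steadily expressed JUN gene, was called open through sites that began after its RefSeq TSS. From MES to MAC these were 1300, 1600, 2100, 1400 and 1200 bp wide, and their starts lay 285 bp (HE) to 487 bp (MAC) past that TSS. The TSS of the GENCODE vM21 annotation lies 1210 bp past the RefSeq TSS, at position 70698949, and the middles of the 5 sites fell within -124 bp (MAC) to 124 bp (HE) of it. With GENCODE TSSs, an alternative added after the data had been seen, all 5 Jund sites covered the TSS region even at a reach of 100 bp, where the RefSeq TSS gave none. The region's central 500 bp, 73.8% G or C, held an exact CRE.

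At all 4 FOS genes the widest promoter site was of HE and no list had a narrower one than MAC, the order in which the medians of the whole lists also stood. Fos (chr12:85473890-85477274, plus strand) had a promoter site of 1200, 1300, 2500, 1300 and 700 bp in the order of the stages. Fosb (chr7:19302696-19310118, minus strand), its closest relative, had 700 (MES), 700 and 1000 (HB), 2400 (HE), 800 (HP) and 700 bp (MAC). Fosl1 (chr19:5447698-5455938, plus strand), which encodes FRA1, had 600, 600, 1400, 800 and 400 bp. That promoter site was its sole site in each list. Fosl2 (chr5:32136472-32157840, plus strand), which encodes FRA2, had 1000, 1200, 1400, 900 and 900 bp. The Fosl1 site in MAC was narrower than 23324 sites of that list. When sites below their list's median width were left out, Fosb kept a promoter site in HB, HE and MAC and Fosl1 in HE. With each list cut to its widest 17734 sites, Fosl1 kept MES, HE and HP.

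Of the smaller factors, Atf3 (chr1:191170296-191183333, minus strand) had an open promoter throughout, with widths of 1500, 1400, 1800, 1000 and 1100 bp from MES to MAC. Batf3 (chr1:191098414-191108943, plus strand), known for its need in cross-presenting dendritic cells, lies in the same 100 kb of chromosome 1. Its promoter site was 700 bp wide in MES, 900 bp in HB and 700 bp in HE, and HP and MAC listed none. Those sites were near or below the median of their lists. With each list cut to its widest 17734 sites, Batf3 kept MES and HB, and so it did at a promoter reach of 100 bp. Without sites below their list's median width it kept HB alone. Batf (chr12:85686720-85709087, plus strand) had no promoter site with RefSeq or GENCODE TSSs. Its 300-base promoter was not CpG-rich (49.7% G or C, observed over expected CpG 0.487), whereas that of Batf3 was (75.7%, 0.914). CpG-rich here means at least 50% G or C and a CpG ratio of at least 0.6, which 46.5% of promoters reach. Junb, Fos, Fosb, Fosl2 and Atf3 were CpG-rich as well, Jun fell short by its ratio of 0.594, and the window at the RefSeq TSS of Jund was not (0.184).

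Sites beyond the promoters differed more in number between lists than promoter sites did. In all, the 10 genes had 29 sites (MES), 33 (HB), 29 (HE), 20 (HP) and 58 (MAC), which is 0.132%, 0.133%, 0.0871%, 0.113% and 0.155% of each list. The median over the 10 genes was 3 sites (MES), 2 (HB), 3 (HE), 2 (HP) and 6 (MAC), where the median over all protein-coding genes was 1 in each stage. Means over all genes were 1.05, 1.16, 1.52, 0.869 and 1.69. AP-1 genes thus had most sites in MAC, the longest list, and the share of the list was also highest there and lowest in HE. Outside promoters the counts were 19, 23, 20, 12 and 50 sites. Over all genes, the number with a promoter site ran from 10526 (HP) to 12948 (HE), while the list lengths ran from 17734 (HP) to 37456 (MAC). A like contrast thus stood over all genes and was not particular to the members. Over the 5 lists together, a member had a median of 14.5 sites and a protein-coding gene 5. At equal list length, with the widest 17734 sites of each, the MAC count was 38, against 25, 21, 19 and 20 from MES to HP.

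**Figure D2:**
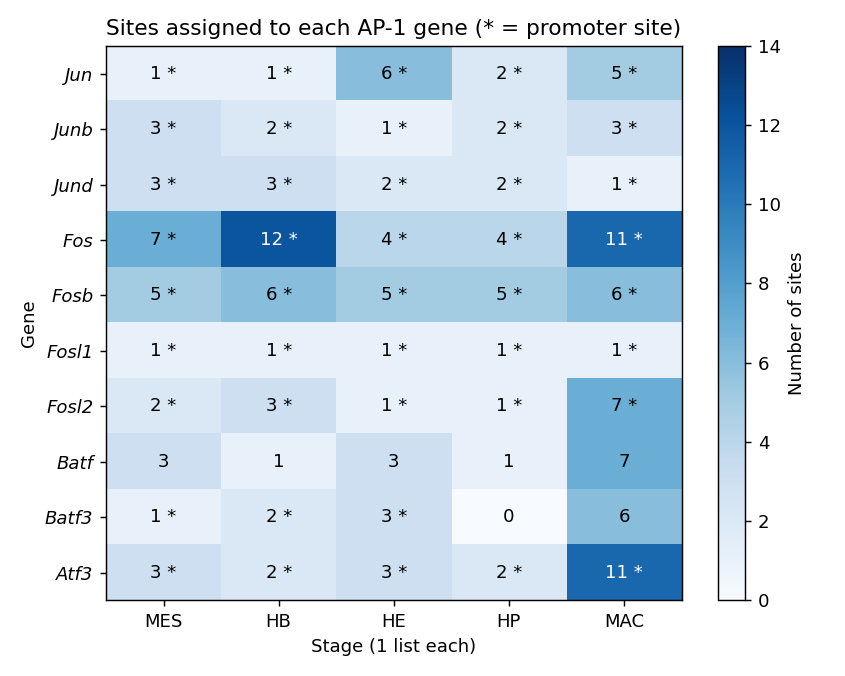
Number of sites assigned to each gene (rows) in each stage (columns, 1 list per stage), with an asterisk where at least 1 of them is a promoter site. Fos in HB (12), Fos in MAC (11) and Atf3 in MAC (11) are the highest cells, and Batf3 in HP is the sole 0.

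The course of the counts over the lists differed from gene to gene. Fosl1 had 1 site per list and Fosb 5, 6, 5, 5 and 6 from MES to MAC. Junb had 3, 2, 1, 2 and 3, and Jund went from 3 in MES and HB to 2 in HE and HP and 1 in MAC. Fosl2 (2, 3, 1, 1 and 7), Batf (3, 1, 3, 1 and 7), Batf3 (1, 2, 3, 0 and 6) and Atf3 (3, 2, 3, 2 and 11) were highest in MAC. At equal list length, with the widest 17734 sites of each, Batf, Batf3 and Atf3 were still highest there, with 4, 4 and 10 sites. Fosl2 had 2 in MAC against 3 in HB, but this order rests on how ties in width were broken. The cut fell among sites of 600 bp in MAC and of 700 bp in HB, kept in order of chromosome. Fosl2 had sites of these widths in both lists. Jun was highest in HE with 6 sites, against 1, 1, 2 and 5 in MES, HB, HP and MAC, but within 20 kb it had 1 site in every list. Fos had 7 (MES), 12 (HB), 4 (HE), 4 (HP) and 11 (MAC), so HE and HP were its lowest lists. Such counts were rare among protein-coding genes: 99.9% of genes had fewer sites than Fos in HB, and 99.0% fewer than Fos or Atf3 in MAC. The HB count of Fos rests on narrow and distant sites. It was 4 without sites below the median width of their list, 6 with each list cut to its widest 17734 sites and 7 within 20 kb, and the first pair of settings left Fos with 8 sites in MAC, more than in HB. Genes differed in the stretch of chromosome for which they are the nearest gene. It was 112 kb for Fos and 76.7 kb for Atf3 but 10.2 kb for Junb, with a median of 49.1 kb over all genes, and per 10 kb of it Junb had 2.94 sites in MES and MAC and Fosb 2.22 in HB and MAC, more than Fos with 1.07 in HB or Atf3 with 1.43 in MAC.

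**Figure D3:**
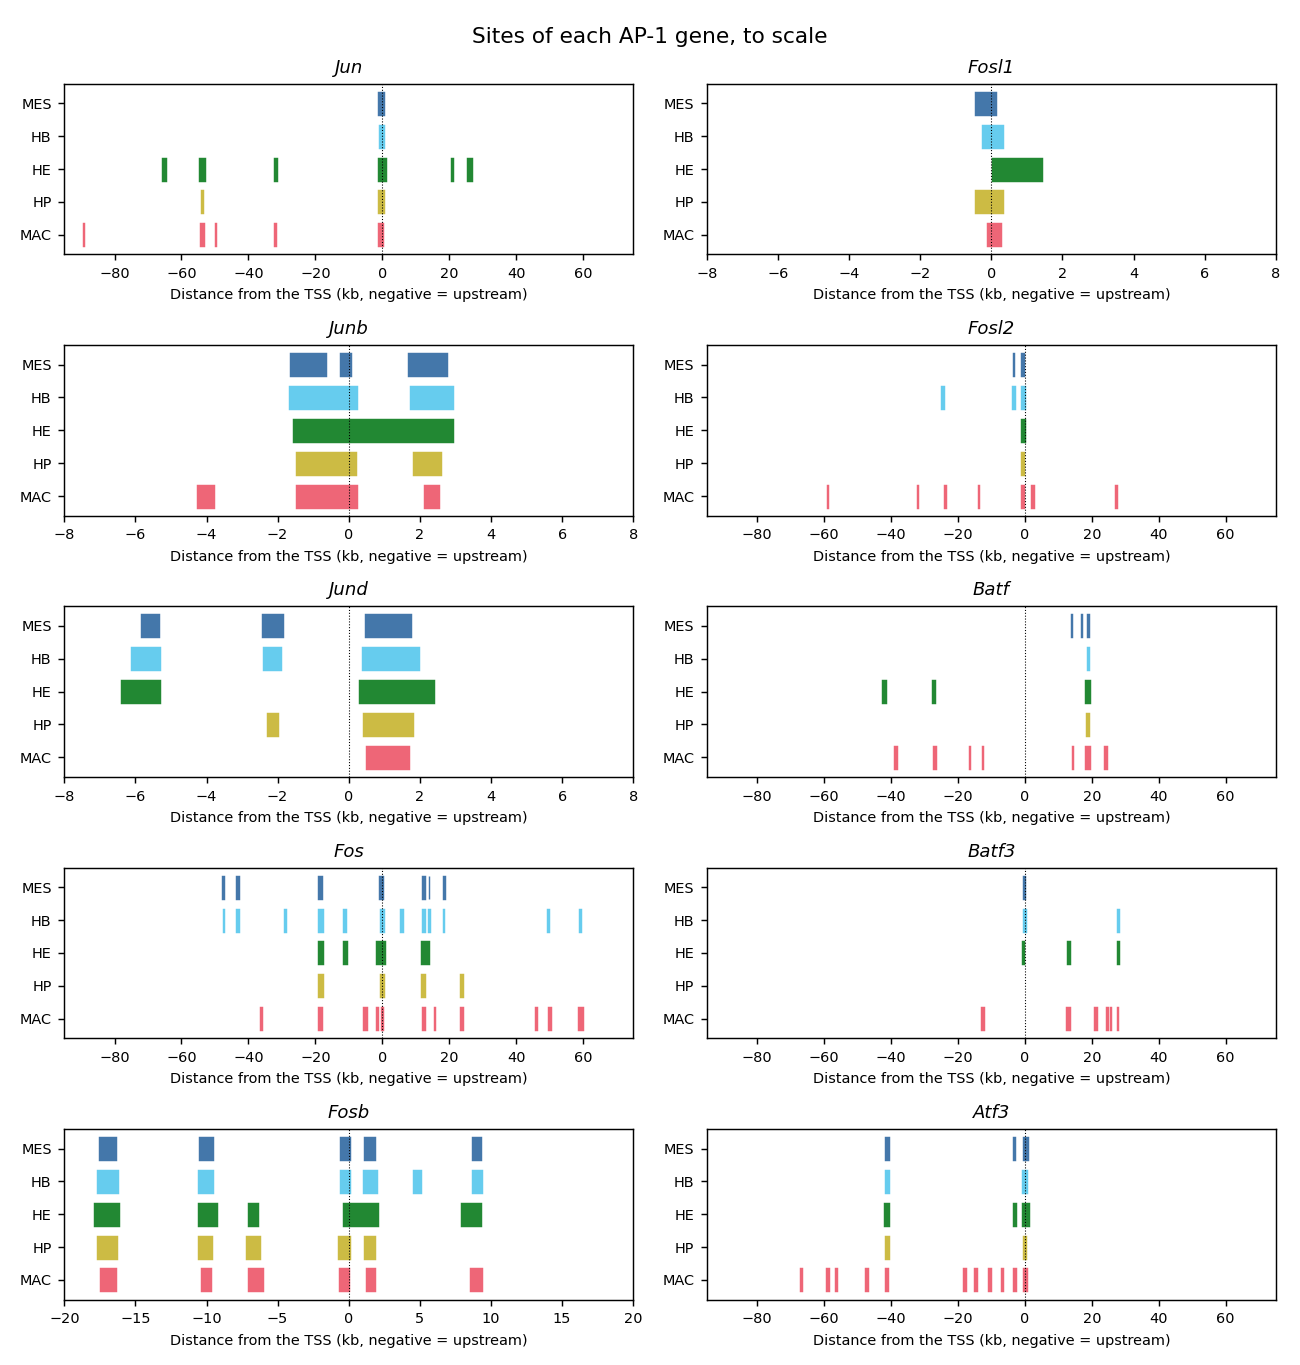
Position of every site relative to the TSS (x axis in kb, negative values upstream) in each stage (rows), drawn to scale for the 10 genes; Junb, Jund, Fosl1 and Fosb have shorter axes. Atf3 has sites upstream in MAC, from -66.8 to -6.78 kb, that the other lists lack, and Fos shows shared early sites in MES and HB on either side.

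At the Jun locus the sites away from the promoter were of HE, HP and MAC, and MES and HB had none. Upstream, they lay in the divergent long non-coding gene Junos. The widest was at -53.9 kb, with 1600 bp in HE and 1000 bp in MAC, and the HP list had 700 bp there at -53.8 kb. HE and MAC shared a further site at -32.0 kb, of 800 and 600 bp. HE alone had sites at -65.2, 20.8 and 26.1 kb, and MAC alone at -89.2 and -49.8 kb. Jun was thus the member with most HE-only regions, 3 of 8, none of which held the AP-1 palindrome.

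Junb and Jund had compact loci. Apart from the regions named above, Junb had a MAC site of 500 bp at -4.03 kb with a match to the PU.1 consensus GAGGAAGT. Jund had 2 upstream regions: that at -5.73 kb had sites in MES (500 bp), HB (800 bp) and HE (1100 bp), and that at -2.15 kb in MES (600 bp), HB (500 bp) and HP (300 bp). No Jund site was listed for MAC beyond the promoter.

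Fos had 20 regions, the most of any member. A region at -18.5 kb was open in all 5 stages, with sites of 1200, 1300, 1600, 1300 and 1200 bp. The CArG region at 12.3 kb had 800, 1000, 2400, 1100 and 1100 bp. It counts as open in MES, HB, HP and MAC only, because the middle of the wide HE site lies at 12.9 kb, but the HE interval covers it. MES and HB shared regions at -47.5, -43.3 and 18.4 kb, none of which had a site at a later stage. Past HB, a region at -11.2 kb was open in HB and HE and a region at 23.6 kb in HP and MAC. HB and MAC, which are not neighbours in the series, shared 59.2 kb, with 600 bp in HB and 1400 bp in MAC, the widest MAC site outside the promoter. MAC alone had -36.2, -5.12, 15.6 and 45.9 kb, and further MAC regions at -1.72 and 50.0 kb touched a deposited HE and HB site, respectively. The 2 groups of sites, early and macrophage, were interleaved along the locus.

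Fosb had regions at -17.0 and -10.0 kb that were open in all 5 stages. At -17.0 kb lay the widest site outside the promoter in each list, of 1200, 1500, 1700, 1400 and 1100 bp. A region at -6.65 kb was open from HE on, with 700 (HE), 1000 (HP) and 1000 bp (MAC), and one at 8.83 kb in all stages but HP. No Fosb region was open in MAC only.

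Fosl2 had 6 of 9 regions in MAC only, at -59.1, -32.1, -23.7, -13.9, 2.32 and 27.2 kb. Their widths were 300 to 700 bp, and 4 of the 7 MAC sites, the promoter site included, were at or above the median width of their list. Only 2 of the 7 were kept when the MAC list was cut to its widest 17734 sites. That cut fell among sites of 600 bp. The Fosl2 sites of this width, at -23.7 and 27.2 kb, were lost because ties were kept in order of chromosome. The widest of each stage outside the promoter were 300 bp in MES at -3.42 kb, 700 bp in HB at both -24.6 and -3.42 kb, and 700 bp in MAC at 2.32 kb. HE and HP had no site outside the promoter, though by the nearest gene body HE had 2 sites in all.

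Batf, without a promoter site, had a region inside the gene that every list shared. It lies in an intron at 18.7 kb, with widths of 500, 700, 1600, 900 and 1300 bp from MES to MAC, and was the widest Batf site in each list. Batf also had 5 MAC-only regions, at -38.5, -16.4, -12.7, 14.3 and 24.1 kb, of which that at 14.3 kb touched a MES site. HE and MAC shared one at -27.1 kb, and HE alone had -42.1 kb. Assigned by the nearest gene body in place of the nearest TSS, Batf had 1 site in HE in place of 3 and 5 in MAC in place of 7. Batf3 had no region open in all 5 stages. Past its promoter it gained regions at 12.9 kb in HE and MAC (900 and 1000 bp) and at 27.7 kb in HB, HE and MAC (500, 500 and 400 bp), and 4 more in MAC only, at -12.6, 21.1, 24.6 and 25.5 kb. In HP no site was assigned to Batf3, though 1 was by the nearest gene body. Both Batf genes therefore had sites in MAC without a promoter site there.

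Atf3 had the most MAC-only regions, 8 of its 11. They lay upstream, at -66.8, -58.8, -56.4, -47.3, -18.1, -14.8, -10.6 and -6.78 kb, with widths of 700, 900, 400, 1100, 800, 1000, 1000 and 600 bp. That at -47.3 kb was the widest MAC site outside the promoter. In MES, HB, HE and HP the widest was the region at -41.3 kb, open in all 5 stages with 1100, 1200, 1600, 1200 and 1000 bp. A region at -3.15 kb was open in MES (400 bp), HE (700 bp) and MAC (900 bp). Of the 21000 genes, 231 had as many MAC-only regions as Atf3 or more, and 98.9% had fewer. Fos and Fosl2 followed with 6 each (97.2% of genes had fewer), then Batf with 5 (95.5%), Batf3 with 4 (93.2%), Jun with 2 and Junb with 1, and Jund, Fosb and Fosl1 had 0. A protein-coding gene had 0.894 such regions on average and a median of 0.

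To compare patterns over the stages, the middle of each site was widened to a window of 500 bp, windows that overlapped by the minimum the study had used were joined, and a region counted as open in each stage that gave it a window. The 10 genes had 84 such regions of 68846. MAC-only regions numbered 32, or 38.1% (95% Wilson interval 28.4 to 48.8), against 31.0% of all regions. Regions open in all 5 stages numbered 10, or 11.9% (interval 6.60 to 20.5), against 13.2%, and HE-only regions 8, or 9.52% (interval 4.91 to 17.7), against 17.1%. In each of these classes the share over all regions lay within the members' interval. For MAC-only regions this changed under width filters. Without sites below their list's median width the share was 48.1% (25 of 52, interval 35.1 to 61.3) against 29.7% of all regions. With each list cut to its widest 17734 sites it was 33.9% (20 of 59, interval 23.1 to 46.6) against 20.5%. The median width was 600 bp in MAC but 800 to 1200 bp in the other lists. Some regions thus became MAC-only by losing sites of other stages, such as Jun at -32.0 kb and Fosb at -297 bp. How far this moved the share was not tested. Regions of a gene share its neighbourhood, so the intervals cover counting error only. Lacking HE alone were 5 regions, 5.95% against 0.934%. At each of them, namely Junb at 2.26 kb, Fos at 12.3 kb, Fosb at -297 and 1500 bp and Fosl1 at -47 bp, a deposited HE site overlapped the region with its middle elsewhere, as an HE site did at 434 of the 643 such regions of all genes (67.5%). Counted by overlap of deposited intervals with the regions, an alternative added after the data had been seen, MAC-only regions numbered 29 (34.5%, interval 25.2 to 45.2) against 29.6% of all regions. Regions that overlapped sites of all 5 stages numbered 19 (22.6%, interval 15.0 to 32.6) against 14.6%, which lay just below that interval.

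**Figure D4:**
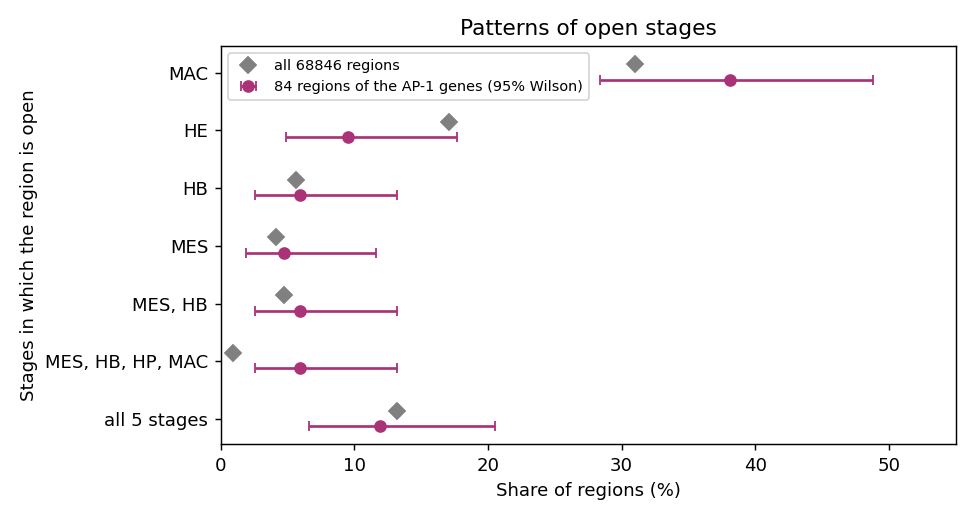
Share of regions (x axis, %) with each pattern of open stages (y axis), for the 84 regions of the AP-1 genes (circles, bars are 95% Wilson intervals) and for all 68846 regions (diamonds). The diamond lies inside the bar for MAC only and for all 5 stages, and below it for regions that lack HE alone.

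The members' own regions were searched for TGANTCA, the form of the AP-1 palindrome used here. Of the 68 regions over 2 kb from a TSS, 16 held an exact match on either strand in their central 500 bp (23.5%, interval 15.0 to 34.9), and over all 52345 such regions the share was 27.2%. In MAC-only regions it was 11 of 31 (35.5%, interval 21.1 to 53.1) against 34.1% of 19983, in regions of all 5 stages 2 of 5 (interval 11.8 to 76.9) against 18.5% of 1596, and in HE-only regions 0 of 5 (interval 0 to 43.4) against 24.7% of 9885. In each of these 4 sets the background lay within the interval of the AP-1 genes. With the central base limited to C or G, 14 of 68 regions matched (20.6%, interval 12.7 to 31.6) against 21.5% of all. In MAC-only regions it was then 11 of 31 (35.5%, interval 21.1 to 53.1) against 27.1%. For regions of all 5 stages it was 1 of 5 (interval 3.62 to 62.4) against 14.9%. With the palindrome reversed but not complemented, which keeps its base composition, 11 of 68 regions matched (16.2%) against 13.8% of all distal regions. By gene, Atf3 had 5 regions with the palindrome, Jun 3, Fosl2 3, Fos 2, Fosb 2 and Batf3 1, while the distal regions of Batf, Junb and Jund had none.

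The palindromes at Atf3 are printed because they stand in 4 of its 8 MAC-only regions and in the region that every stage shares. Sequences are of the plus strand of GRCm38.p6 with TGANTCA in capitals, at chr1:191239830-191239896, chr1:191230735-191230801, chr1:191224413-191224479, chr1:191193924-191193990 and chr1:191190018-191190084 in this order. Beside them stands the palindrome of the Fosb region shared by all 5 stages, at chr7:19327117-19327183.
Atf3, -56.4 kb, MAC: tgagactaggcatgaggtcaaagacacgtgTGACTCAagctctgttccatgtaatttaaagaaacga
Atf3, -47.3 kb, MAC: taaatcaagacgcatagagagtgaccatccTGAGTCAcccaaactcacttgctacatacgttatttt
Atf3, -41.3 kb, all stages: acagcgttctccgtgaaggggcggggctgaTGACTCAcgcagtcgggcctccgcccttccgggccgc
Atf3, -10.6 kb, MAC: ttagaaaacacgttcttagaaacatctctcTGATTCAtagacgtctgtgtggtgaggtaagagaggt
Atf3, -6.78 kb, MAC: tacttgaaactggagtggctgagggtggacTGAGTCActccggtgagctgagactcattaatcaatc
Fosb, -17.0 kb, all stages: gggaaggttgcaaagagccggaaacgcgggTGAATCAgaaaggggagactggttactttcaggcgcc
Each palindrome was covered by the deposited sites of the stages named with it. The printed Fosb match, TGAATCA, and the printed Atf3 match at -10.6 kb, TGATTCA, lack a central C or G. A match describes the letters and is not evidence that a factor was bound.

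PU.1, the master factor of macrophages, has the consensus GAGGAAGT, which 4 of the 31 MAC-only member regions held (12.9%, interval 5.13 to 28.9) against 14.6% of all MAC-only regions. They were Junb at -4.03 kb, Fosl2 at -59.1 kb, Batf at -38.5 kb and Atf3 at -66.8 kb. An HB site of Fos at 49.6 kb held it too. The Batf intron region that all stages shared held it as well, at chr12:85705375-85705442. It is shown with the Fosl2 region, chr5:32077242-32077309, in which an AP-1 palindrome also lies, at chr5:32077321-32077387. Capitals mark the consensus, which may stand on either strand.
Batf, 18.7 kb, PU.1: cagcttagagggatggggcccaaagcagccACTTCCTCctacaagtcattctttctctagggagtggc
Fosl2, -59.1 kb, PU.1: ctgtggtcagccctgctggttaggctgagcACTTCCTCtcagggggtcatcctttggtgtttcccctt
Fosl2, -59.1 kb, AP-1: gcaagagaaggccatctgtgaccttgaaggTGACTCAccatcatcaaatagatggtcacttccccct
Fosl2 at -59.1 kb was the sole distal member region with both. The RUNX consensus TGTGGT was found in 33 of 68 distal regions (48.5%, interval 37.1 to 60.2) against 37.3% of all. TEAD factors, which read GGAATG, had a match in 25 (36.8%, interval 26.3 to 48.6) against 29.3%. For the C/EBP consensus TTGCNNAA it was 16 (23.5%) against 22.8%, and for the GATA consensus AGATAA it was 14 (20.6%) against 27.3%. For each of the 8 consensus sequences the share over all distal regions lay within the members' interval.

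**Figure D5:**
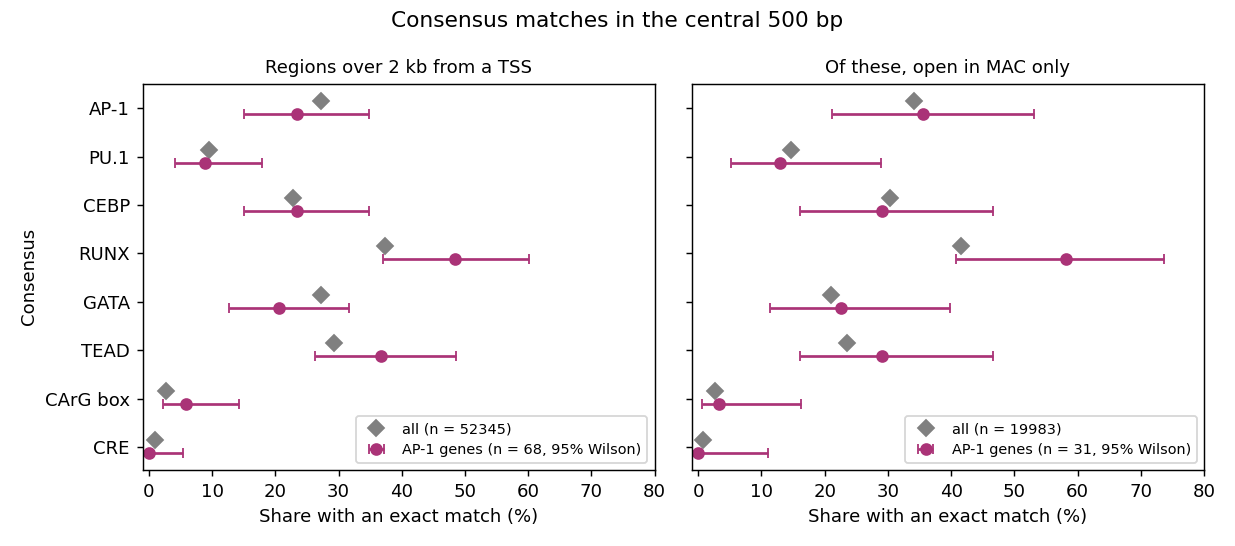
Share of regions over 2 kb from a TSS (x axis, %) with an exact match to each consensus in the central 500 bp, for all such regions of the AP-1 genes (left, n = 68) and for those open in MAC only (right, n = 31), with 95% Wilson intervals; diamonds are the shares over all genes. Every diamond lies inside the members' interval.

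The other genes of the pathway were read from 5 lists with 39 genes: further bZIP partners, upstream kinases, inducing factors, co-induced immediate early genes, and the IRF partners of BATF. Of the 39 genes, the numbers with a promoter site were 34 (MES), 36 (HB), 37 (HE), 34 (HP) and 35 (MAC), and 30 genes had one in all 5 stages, the pattern of Jun, Fos and 6 more members. Batf2, a relative of Batf, was the sole one without any promoter site, as Batf itself, and no gene of the lists shared the pattern of Batf3. The 10 immediate early genes, among them Egr2, Ier2, Dusp1 and Zfp36, had 10, 10, 10, 10 and 9 open promoters, with Cyr61 (Ccn1) missing in MAC. Of the 10 kinases, 9 had a promoter site in each of MES, HB, HE and HP and 8 in MAC. Mapk10, the JNK gene of neurons, had one in HP only. Of the 7 inducing factors, Srf, Elk1, Elk4, Creb1 and Mef2d were open in all 5 stages, Elk3 from HB on and Mef2c in HB, HE and MAC. Irf8, partner of BATF in macrophages and dendritic cells, had an open promoter in all 5 stages with 18 sites in MAC, and Irf4 had one in HE and MAC. Jdp2, the neighbour of Batf on chromosome 12 and itself a JUN partner, had 9 sites in MAC against 2, 2, 5 and 1 before.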

How the data were processed

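DNaseI-seq sites of 5 stages were taken as deposited, 1 list per stage, with groups from the sample labels. By the study's methods, CutAdapt trimmed the reads, Bowtie placed them on mm10, multiply placed reads and duplicates (Picard) were dropped, and the authors ran DFilter on 100 bp bins to call the sites; versions are not given in the sources used here, and HOMER is also named in the submitters' processing notes. How the replicates named in the MAC label were combined is not given in the sources used here. Each deposited site is a start and an end, with no score or coverage, so filters could use width only. Sites were assigned with Python 3.11.15 and numpy 2.4.6 to TSSs of RefSeq GRCm38.p6, with distance from the middle of the site except for the promoter rule, which used its edge. Of the members, 9 matched the RefSeq promoter sequences. Motifs were exact matches on both strands. Assignment, merging and motif search were tested on simulated data. Named regions were every promoter site, regions open in all 5 stages and the widest site of each stage outside the promoter; others were named after their values were seen. The members and lists were chosen with earlier results of these data known. Shares carry 95% Wilson intervals. Alternatives changed list lengths, widths, reach, TSS set, merging and motif window.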

Additional observations from a re-analysis of the deposited data

How the results depend on the processing

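With sites below their list's median width left out, the members had 14 sites in MES, 15 in HB, 19 in HE and 13 in HP, 52 merged regions, and 4 regions open in consecutive stages in place of 11. With every list cut to its widest 17734 sites, the length of the HP list, they had 21 sites in HB, 19 in HE and 38 in MAC. There were then 20 MAC-only regions and 7 regions in consecutive stages. Ties in width at that cut were broken by order of chromosome and position, so sites of equal width were kept or lost by where they lie. A reach of 20 kb left 33 sites in MAC. Merging deposited intervals in place of windows left 4 HE-only regions. Reading the stages of each region from overlapping deposited intervals, added after the data had been seen, gave 19 regions open in all 5 stages in place of 10. In the central 200 bp, a shorter stretch to search, the AP-1 share was 14.7%. The share over all distal regions in that stretch is not given. The causes of changes under the alternatives were not tested. The promoter counts per stage kept within 1.5 times under every alternative, GENCODE TSSs included. Orders of stages did change, in the following cases among others. Fos had 12 sites in HB and 11 in MAC, but 4 and 8 without the narrow sites. At equal list length Fos had 6 and 8. Fosl2 had 3 in HB and 7 in MAC but 3 and 2 at equal list length, where its order rests on the tie rule. Jun had 6 in HE and 5 in MAC but 1 in every list within 20 kb. The members' 29 HE and 20 HP sites became 19 and 20 at equal list length. Assigned by the nearest gene body, Batf had 1 HE site in place of 3, Fosl2 2 in HE in place of 1 and Batf3 1 in HP in place of 0. By gene, a promoter reach of 100 bp from RefSeq TSSs left Jund without a promoter site, Fosl2 with HB and HE, and Batf3 with MES and HB. MAC-only regions made up 33.9% to 48.1% of the members' regions and 20.5% to 31.1% of all regions. Depth was not used and limits each absence. No paired analysis was possible because each stage had 1 list.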
